A study of Mus musculus with 2 samples.

Results

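The insulin-like growth factor (IGF) system was read in the fracture callus through 9 genes: the ligands Igf1 and Igf2, the receptors Igf1r and Igf2r, and the binding proteins Igfbp2, Igfbp3, Igfbp4, Igfbp5 and Igfbp7. They were taken by symbol from the 32285 genes of the deposited counts, and all 9 were found. The counts came from 2 single-nucleus RNAseq libraries of the injured tibia of C57BL6 mice, made from the activated periosteum scraped and collected with the hematoma or callus. One library was taken at day 1 post-fracture, and the other at day 5 after a musculoskeletal traumatic injury (MTI), in which the bone is fractured and the adjacent muscles are crushed. The age of the mice and the sex are not given in the labels, but the study's methods state an age range in weeks and that experimental groups mixed males and females. Each library pooled nuclei of 3 or 4 mice, so each condition had 1 sample and could not be tested across samples, and the intervals given are 95% intervals that cover counting error only. Day and injury differed together between the libraries and cannot be told apart, so levels were compared within a library and never between them.

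IGF1 and IGF2 are secreted growth factors that signal through the receptor tyrosine kinase IGF1R, and in bone and muscle they are known to act on growth and on repair. IGF2R, also the mannose 6-phosphate receptor, takes up IGF2 and carries it to lysosomes without passing on an IGF signal. The binding proteins hold IGFs in the extracellular space and are cut by proteases such as PAPPA, which releases the ligand. IGFBP7 binds IGFs weakly and is known as a vascular matrix protein.

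After filtering, the MTI library held 1127 nuclei and 4337337 UMIs (unique molecular identifiers, each counting 1 captured RNA molecule), with 2364 UMIs in the median nucleus. In the day 1 library 2405 nuclei were kept, with 1202240 UMIs and 409 UMIs in the median nucleus. They came from 48987 barcodes, which reached down to 72 UMIs, and every barcode that passed the filter was taken as a nucleus. The study reports fewer nuclei for this library at the same limits, also with myogenic nuclei set aside. Whether some barcodes kept here held only free RNA, from outside nuclei, was not tested, nor was their part in the day 1 ratios. The MTI nuclei fell into 17 populations that were named from markers where these allowed it: 4 of macrophage-like nuclei (269 nuclei together), 2 of skeletal lineage-like nuclei (176 together), 2 of muscle fibre-like nuclei, 1 each of monocyte-, neutrophil-, lymphoid-, osteoclast-, erythroid-, endothelial- and satellite/myoblast-like nuclei, and 2 left unnamed and called by their leading genes, Elf5 and Hspa1a. Some populations did not hold to their names in full. Of the 176 skeletal lineage-like nuclei, 60 had more chondrocyte than osteoblast marker UMIs, and 106 had equal numbers, of which 103 had no marker UMI of either. The erythroid-like nuclei had macrophage marker UMIs at 2235 per 1000000 UMIs (CPM), with 9 of 9 macrophage markers detected. Their erythroid marker UMIs stood lower, at 645 CPM. Among the MTI nuclei, 29 had a barcode that also occurred in the day 1 library, and 14 of these were among the 74 Ppp1r27-led muscle fibre-like nuclei. A level is given as CPM of the summed UMIs of a population. Fewer nuclei with a transcript and less transcript per nucleus cannot be told apart in such a sum.

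A ligand, its receptor and a binding protein on which the results turn are shown by the 200 bases before their start in RefSeq (GRCm38.p6). The windows lie at chr10:87860911-87861110 on the plus strand for Igf1, chr7:67952057-67952256 on the plus strand for Igf1r and chr5:77408046-77408245 on the minus strand for Igfbp7. Capitals mark the motifs found on either strand: an E-box (CAGCTG) and an ETS core (AGGAAG) for Igf1, and GC boxes (GGGCGG, or CCGCCC on the opposite strand) for Igf1r and Igfbp7. A TATA box (TATAAA) was also searched and was not in these 3 windows.
Igf1: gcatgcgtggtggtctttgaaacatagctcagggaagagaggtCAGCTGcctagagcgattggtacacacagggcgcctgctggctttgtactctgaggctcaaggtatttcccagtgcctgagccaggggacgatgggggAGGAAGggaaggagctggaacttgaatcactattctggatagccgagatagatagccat
Igf1r: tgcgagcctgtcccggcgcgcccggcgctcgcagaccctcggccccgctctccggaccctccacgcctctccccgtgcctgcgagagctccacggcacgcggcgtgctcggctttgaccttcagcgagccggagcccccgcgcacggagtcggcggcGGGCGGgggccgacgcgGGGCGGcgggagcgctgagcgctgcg
Igfbp7: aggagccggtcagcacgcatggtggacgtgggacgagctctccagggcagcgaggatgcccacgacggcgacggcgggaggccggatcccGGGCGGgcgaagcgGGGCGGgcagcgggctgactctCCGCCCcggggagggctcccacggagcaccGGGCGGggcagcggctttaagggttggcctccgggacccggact

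The Igf1 window lies inside the span that GENCODE gives to the gene and to its antisense partner Igf1os, since GENCODE holds a start further upstream. In the Igf1 window the E-box began 157 bases and the ETS core 59 bases before the start. The Igf1r window had GC boxes 43 and 26 bases before the start and a GC content of 79.5%. The Igfbp7 window had 4 GC boxes and a GC content of 75.5%, against a median of 53% over all 32851 promoter windows. Of these windows, 10.9% held the E-box, 24.7% the ETS core, 31% a GC box and 9.96% the TATA box, and 6 of the 13 windows of the members held a GC box. A match describes the letters and is not a measured binding site.

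**Figure D1:**
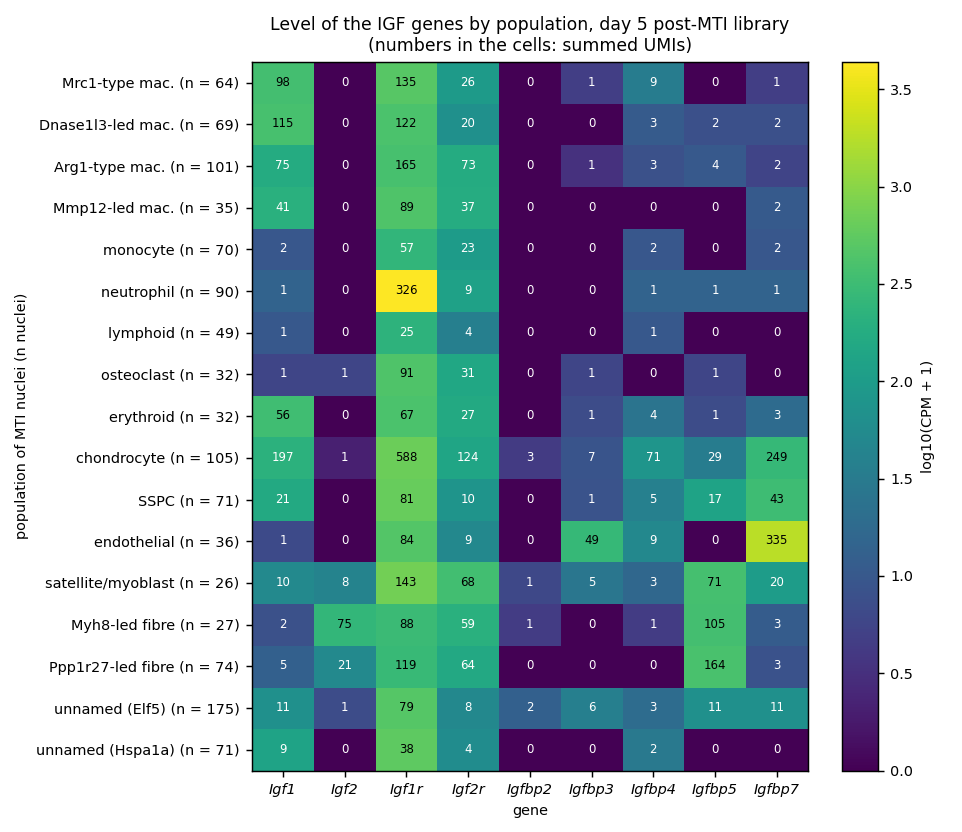
Levels of the 9 genes (columns) in the 17 populations of the MTI library (rows), coloured by log10(CPM + 1), with the number of UMIs written in each cell. Igf1 is spread over macrophage-like and skeletal lineage-like nuclei, Igf2 is held mainly by muscle fibre-like nuclei, and Igfbp7 peaks in endothelial-like nuclei with 335 UMIs.

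Igf1 (chr10:87858265-87937042, plus strand, GRCm38), the ligand through which growth hormone acts on many tissues, was read from 646 UMIs in 171 of the 1127 MTI nuclei. Macrophage-like nuclei held 50.9% of these UMIs and 27.8% of all UMIs, and skeletal lineage-like nuclei held 33.7% of them and 23.7% of all UMIs. Igf1 was highest in the Dnase1l3-led macrophage-like nuclei, with 381 CPM (interval 314 to 457; 115 UMIs in 33 of 69 nuclei). The Mrc1-type macrophage-like nuclei followed with 361 CPM (293 to 440; 98 UMIs in 25 of 64 nuclei), and these populations did not differ beyond counting error (ratio 1.06, 0.799 to 1.40). Mrc1 encodes the mannose receptor, a scavenging receptor of tissue macrophages. The chondrocyte-like nuclei had 220 CPM (190 to 253; 197 UMIs in 33 of 105 nuclei), the Mmp12-led macrophage-like nuclei 201 CPM (144 to 273), the Arg1-type macrophage-like nuclei 175 CPM (138 to 220) and the SSPC-like nuclei 160 CPM (98.8 to 244). SSPCs are the skeletal stem and progenitor cells of the periosteum. Among the 8 populations with the highest Igf1, the interval of the ratio between neighbours in the order excluded 1 between erythroid-like and chondrocyte-like nuclei and included it for the other neighbours. Ratios of neighbours do not compare populations further apart. The intervals of the Mrc1-type (293 to 440) and chondrocyte-like nuclei (190 to 253), for example, did not overlap.

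The erythroid-like nuclei took the third place for Igf1 with 335 CPM (253 to 435), but this level rested on few nuclei. Its 56 UMIs lay in 7 of 32 nuclei, and 25 of them came from 1 nucleus. Without that nucleus the level was 203 CPM (138 to 288), below the 220 CPM of the chondrocyte-like nuclei. All 56 UMIs were in the 22 erythroid-like nuclei with a macrophage marker UMI, and the 10 nuclei without one, which held 12801 UMIs together, had 0 Igf1 UMIs (interval 0 to 288 CPM). The nuclei with a macrophage marker UMI were also deeper, with a median of 7165.5 UMIs against 1090. Erythroid-like nuclei are not counted in the share of Igf1 UMIs given for macrophage-like nuclei. When each nucleus was named by its own highest marker score, 12 nuclei were erythroid-like and had 0 Igf1 UMIs. That naming moves out nuclei whose macrophage score is the higher one, so this 0 is not an independent check.

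At the low end, Igf1 was at 1 UMI each in the neutrophil-, lymphoid-, endothelial- and osteoclast-like nuclei (13.4, 9.08, 5.52 and 4.72 CPM), at 2 UMIs in the monocyte-like and in the Myh8-led muscle fibre-like nuclei and at 5 UMIs in the Ppp1r27-led muscle fibre-like nuclei. These were the lowest Igf1 levels of the MTI library, and at 1 to 5 UMIs they cannot tell low expression from free RNA. In this library each deposited barcode had at least 500 UMIs, so that free RNA could not be read from shallow barcodes. The satellite/myoblast-like nuclei had 51.4 CPM (10 UMIs), the unnamed nuclei led by Hspa1a 130 CPM (9 UMIs) and those led by Elf5 67 CPM (11 UMIs). Macrophage marker UMIs were also present in the unnamed nuclei led by Hspa1a, at 2346 CPM, and their part in the Igf1 level was not tested.

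Within the macrophage-like nuclei, Igf1 was lower where Arg1, the arginase of injury-associated macrophages, was detected. The Mrc1-type nuclei had 2.06 times (1.51 to 2.82) and the Dnase1l3-led nuclei 2.17 times (1.61 to 2.95) the Igf1 level of the Arg1-type nuclei. Of the members with at least 10 UMIs, 2 of 4 (Igf1 and Igfbp4) were past 2-fold between the Mrc1-type and the Arg1-type nuclei, where 20.1% of 7322 genes were. Between the Dnase1l3-led and the Arg1-type nuclei 2 of 3 were past it, Igf1 higher and Igf2r lower, where 23.4% of 7563 genes were. Both Igf1 calls depended on single nuclei. Without the top Igf1 nucleus of the Mrc1-type or the Dnase1l3-led nuclei, the ratios were 1.81 (1.31 to 2.51) and 1.86 (1.36 to 2.55), within 2-fold. They were 2.58 and 2.72 without that of the Arg1-type nuclei, and 2.27 and 2.33 without both. The Arg1-type nuclei in turn had 20.1 times (5.37 to 169) the Igf1 level of the monocyte-like nuclei, which rested on 2 UMIs in the latter. Igf1 was the member past 2-fold among 3 there, where 22.7% of 7107 genes were. The summed macrophage markers were also higher in Mrc1-type (6676 CPM) and Dnase1l3-led nuclei (5465 CPM) than in Arg1-type (2534 CPM) and monocyte-like nuclei (1958 CPM), and their part in these ratios was not tested.

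The same was read nucleus by nucleus from the UMIs of Arg1 and Mrc1 within the macrophage-like nuclei as a whole. The 20 macrophage-like nuclei with an Arg1 UMI and no Mrc1 UMI had 1 Igf1 UMI (12.7 CPM, 0.321 to 70.6). The 64 nuclei with both had 93.4 CPM (63.9 to 132). The 129 nuclei with an Mrc1 UMI alone had 380 CPM (330 to 434), close to the 373 CPM (297 to 461) of the 56 nuclei with neither. Igf1 was thus lower in nuclei with Arg1, both with and without Mrc1. The median depth was 3479 UMIs in the nuclei with Arg1 alone, 4879 in those with both, 4054 in those with Mrc1 alone and 3468 in those with neither. Igf1r did not follow this order, with 431, 534, 403 and 306 CPM in the same sets. This split was chosen after levels by cluster had been seen.

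**Figure D2:**
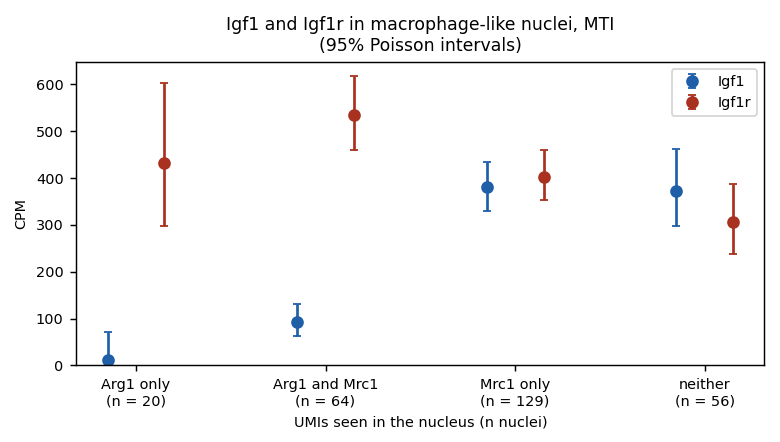
Igf1 and Igf1r levels in CPM (vertical axis) in macrophage-like nuclei of the MTI library, grouped by whether a UMI of Arg1 or Mrc1 was present (horizontal axis), with 95% counting intervals as bars. The Igf1 level was 12.7 CPM in the 20 nuclei with Arg1 alone and 380 CPM in the 129 nuclei with Mrc1 alone.

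Within the skeletal lineage-like nuclei, Igf1 went with chondrocyte markers. The 60 nuclei with more chondrocyte than osteoblast marker UMIs had 339 CPM (288 to 396; 156 UMIs), at 1429 CPM of Col2a1, the collagen of cartilage. The 106 nuclei with equal numbers had 0 UMIs of Col2a1, Sp7, Bglap and Ibsp, 4 of Acan and 4 of Alpl. They had 93.6 CPM of Igf1, and the 10 nuclei with more osteoblast marker UMIs had 188 CPM. Postn, a matrix gene of the periosteum, was highest in the 60 nuclei with more chondrocyte marker UMIs, at 2528 CPM. It stood at 1382 CPM in the 106 nuclei with equal numbers and at 386 CPM in the 10 others. The first set was deeper, with a median of 7358 UMIs against 2964 in the nuclei with equal numbers. This split was also chosen after values had been seen. By cluster, the ratio of chondrocyte-like to SSPC-like nuclei was 1.38 for Igf1, with an interval that included 1. It depended on the nucleus with the most Igf1 UMIs in each, 28 and 9. The ratio was 1.21 (0.765 to 2.00) without the chondrocyte-like one, 2.36 (1.32 to 4.65) without the SSPC-like one and 2.07 (1.15 to 4.08) without both.

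Igf2 (chr7:142650766-142666816, minus strand), the ligand that is imprinted and best known from growth before birth, was read from 107 UMIs, and the muscle lineage held nearly all of them. The Myh8-led muscle fibre-like nuclei, whose Myh8 and Myh3 encode the perinatal and embryonic myosin heavy chains of forming fibres, had 259 CPM (204 to 324; 75 UMIs in 16 of 27 nuclei). The Ppp1r27-led muscle fibre-like nuclei had 50.8 CPM (31.4 to 77.6; 21 UMIs) and the satellite/myoblast-like nuclei 41.1 CPM (17.7 to 81; 8 UMIs). The Myh8-led nuclei stood 5.10 times (3.11 to 8.71) above the Ppp1r27-led ones, and 27 of their 75 UMIs came from 1 nucleus. Without that nucleus the level was 175 CPM (129 to 232). These 3 populations held 70.1%, 19.6% and 7.48% of the Igf2 UMIs. The other 3 UMIs lay in chondrocyte-like, osteoclast-like and unnamed Elf5-led nuclei, 1 in each. No Igf2 UMI was found in the 269 macrophage-like nuclei, with an interval of 0 to 3.06 CPM. Leaving out the fibre nuclei whose barcode occurred in both libraries left 96 Igf2 UMIs in the muscle fibre-like nuclei, the same number as with them.

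Igf2 was the member past 2-fold among 4 between the Myh8-led and the Ppp1r27-led fibre nuclei, where 30% of 7306 genes were. H19, the noncoding RNA beside Igf2 on chromosome 7, was higher in the same nuclei, at 573 CPM (166 UMIs) in Myh8-led and 102 CPM (42 UMIs) in Ppp1r27-led nuclei. Grb10, an imprinted inhibitor of IGF1R signalling, stood at 1045 CPM in Myh8-led and 74.9 CPM in Ppp1r27-led nuclei. Both belong to a list of 32 other IGF pathway genes, of which 19 had at least 10 UMIs over these nuclei. Of the 19, 3 were past 2-fold higher in Myh8-led nuclei and 1 lower, against the 30% of all genes. The other members with at least 10 UMIs over both fibre populations did not differ beyond counting error, with ratios of 1.06 for Igf1r (0.792 to 1.40), 1.32 for Igf2r (0.908 to 1.90) and 0.914 for Igfbp5 (0.708 to 1.17).

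**Figure D3:**
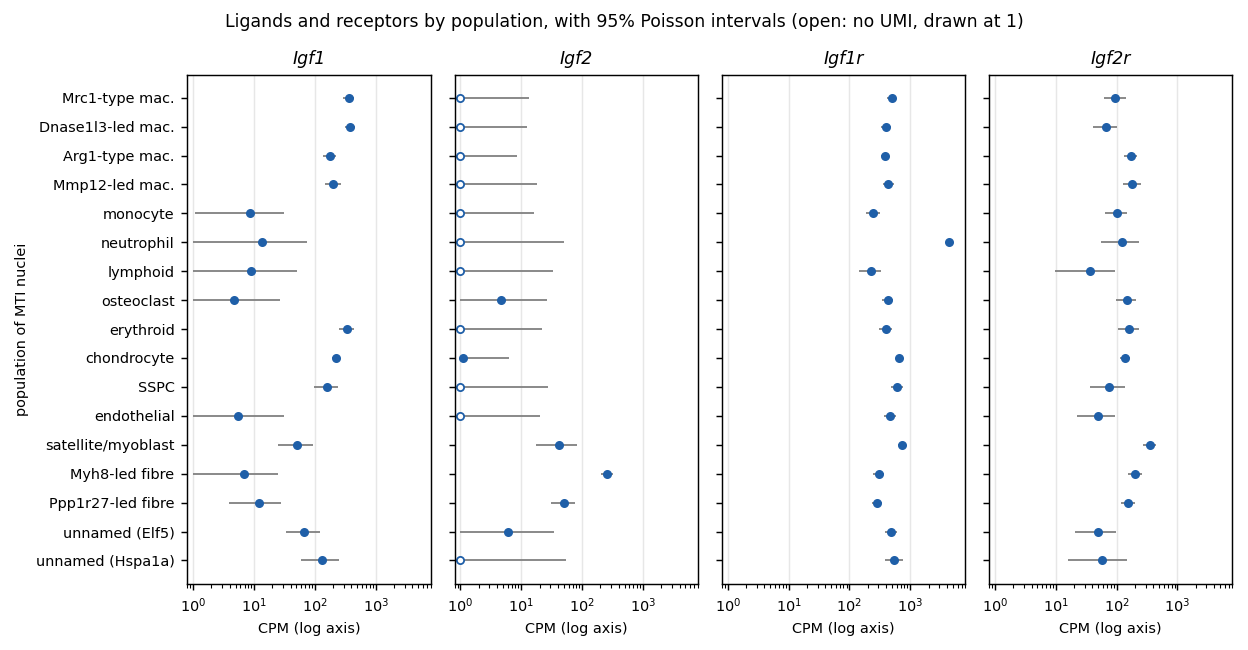
Levels of Igf1, Igf2, Igf1r and Igf2r in CPM on a log axis for the 17 populations of the MTI library, with 95% counting intervals as bars and open symbols, drawn at 1 CPM, where 0 UMIs were found. The Igf1r level of the neutrophil-like nuclei, 4382 CPM, lies to the right of the others, which reach at most 735 CPM.

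Igf1r (chr7:67952827-68233668, plus strand), the signalling receptor, was read from 2297 UMIs and was found in each of the 17 populations. The neutrophil-like nuclei had 4382 CPM (3919 to 4884; 326 UMIs in 69 of 90 nuclei), 5.96 times (4.88 to 7.31) the level of the next population. They held 14.2% of the Igf1r UMIs with 1.72% of all UMIs. The receptor was spread over the neutrophil-like nuclei, with a median of 2 UMIs per nucleus, a highest value of 21, and 4153 CPM without the nucleus that held it. After each nucleus was thinned to 500 UMIs, Igf1r was found in 61 of 90 neutrophil-like nuclei (67.8%) and in 4.08% to 30.8% of the nuclei of the other populations. These nuclei were shallow, at a median of 737.5 UMIs, and across the processing alternatives their level lay between 3137 and 4412 CPM.

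Below the neutrophil-like nuclei the Igf1r levels ran from 735 down to 227 CPM. The satellite/myoblast-like nuclei had 735 CPM (619 to 865), the chondrocyte-like nuclei 657 CPM (605 to 712) and the SSPC-like nuclei 615 CPM (489 to 765). The 4 macrophage-like populations lay between 385 CPM (Arg1-type) and 497 CPM (Mrc1-type), and the latter took 40 of its 135 UMIs from 1 nucleus. The ratio of Mrc1-type to Arg1-type nuclei, 1.29, had an interval that excluded 1, but was 1.01 (0.775 to 1.32) without the nucleus with the most Igf1r UMIs in each. The lowest levels were 249 CPM in monocyte-like and 227 CPM in lymphoid-like nuclei. None of the neighbours in the order from the satellite/myoblast-like nuclei down to the lymphoid-like nuclei had a ratio whose interval excluded 1. These ratios do not compare populations further apart in the order. Endothelial-like nuclei had 464 CPM, osteoclast-like nuclei 429 CPM, and the Myh8-led and Ppp1r27-led muscle fibre-like nuclei 304 and 288 CPM.

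Igf2r (chr17:12682406-12769664, minus strand), the receptor that clears IGF2, was read from 596 UMIs. It was highest in the satellite/myoblast-like nuclei with 349 CPM (271 to 443; 68 UMIs in 20 of 26 nuclei), 1.72 times (1.19 to 2.48) the 204 CPM of the Myh8-led muscle fibre-like nuclei. This level depended on how the nuclei were filtered. It was 268 CPM without the 5% of nuclei with the most UMIs. With a mitochondrial limit of 0.5% it was 148 CPM, below the 161 CPM of the muscle fibre-like nuclei, but the class of that name then held 133 nuclei, of which 13 were satellite/myoblast-like, 72 chondrocyte-like and 42 SSPC-like in the clustering used here. In macrophage-like nuclei Igf2r ran opposite to Igf1, at 182 CPM in Mmp12-led and 170 CPM (134 to 214) in Arg1-type nuclei against 95.7 CPM (62.5 to 140) in Mrc1-type and 66.2 CPM (40.5 to 102) in Dnase1l3-led nuclei. The lowest level was 36.3 CPM in lymphoid-like nuclei. Airn, a noncoding RNA transcribed antisense across part of Igf2r, had 5974 UMIs and 161 to 2543 CPM by population. The strand setting of the counting is not given in the sources used here, and whether any reads of the overlap were counted for the opposite gene was not tested. Igf1os overlaps Igf1 in the same way, with 41 UMIs, 28 of them in macrophage-like nuclei.

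The binding proteins fell to different populations. Igfbp7 (chr5:77349240-77408041, minus strand) was read from 677 UMIs, and endothelial-like nuclei held 335 of them (49.5%), at 1850 CPM (1658 to 2060) in 28 of 36 nuclei. The level of 1850 CPM was 5.66 times (4.12 to 7.97) that of the SSPC-like nuclei, which came next with 327 CPM (236 to 440), ahead of 278 CPM (245 to 315) in the chondrocyte-like nuclei. Without the endothelial-like nucleus with the most Igfbp7, 58 UMIs, the level was 1641 CPM (1453 to 1846) and the ratio 5.02 (3.63 to 7.10). In the marker split described for Igf1, the 10 nuclei with more osteoblast marker UMIs had 449 CPM of Igfbp7 (325 to 604). The 60 nuclei with more chondrocyte marker UMIs had 172 CPM (136 to 214), and the 106 with equal numbers 361 CPM. Satellite/myoblast-like nuclei had 103 CPM, and each macrophage-, monocyte-, neutrophil- and lymphoid-like population had at most 2 UMIs.

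Igfbp3 (chr11:7206086-7213923, minus strand), which carries most circulating IGF, was read from 72 UMIs and was also highest in endothelial-like nuclei, at 271 CPM (200 to 358; 49 UMIs). It lay in 8 of 36 nuclei, and 25 of the 49 UMIs came from 1 nucleus, without which the level was 142 CPM (91.3 to 212). The unnamed Elf5-led nuclei had 36.6 CPM (6 UMIs), the satellite/myoblast-like nuclei 25.7 CPM (5 UMIs) and the chondrocyte-like nuclei 7.82 CPM (7 UMIs). Igfbp2 (chr1:72824503-72852474, plus strand), another binding protein, had 7 UMIs in the whole library, too few for a pattern, of which 3 were in chondrocyte-like nuclei and 2 in unnamed Elf5-led nuclei.

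Igfbp5 (chr1:72857932-72874884, minus strand, a neighbour of Igfbp2), which binds IGFs in the matrix of bone and muscle, was read from 406 UMIs and was highest in the muscle lineage. The Ppp1r27-led fibre nuclei had 396 CPM (338 to 462), the satellite/myoblast-like nuclei 365 CPM (285 to 460) and the Myh8-led fibre nuclei 362 CPM (296 to 439). These levels did not differ from one neighbour to the next beyond counting error, but the lowest of them was 2.81 times (1.67 to 5.00) the 129 CPM of the SSPC-like nuclei. Of the 17 UMIs of the SSPC-like nuclei, 11 came from 1 nucleus, without which their level was 48.1 CPM (17.7 to 105). The satellite/myoblast-like level was 276 CPM without the 5% of nuclei with the most UMIs. It was 81.5 CPM with the mitochondrial limit of 0.5%, at which most nuclei of that name were skeletal lineage-like in the clustering used here, while the muscle fibre-like nuclei together had 350 CPM. One nucleus held 39 of the 164 UMIs of the Ppp1r27-led nuclei, without which the level was 309 CPM (257 to 368). Without barcodes shared between the libraries, the muscle fibre-like nuclei had 387 CPM of Igfbp5. The chondrocyte-like nuclei had 32.4 CPM, 0.251 times (0.133 to 0.487) the SSPC-like level, and 19 of their 29 UMIs came from 1 nucleus. The ratio was 0.674 (0.275 to 1.98) without the top SSPC-like nucleus alone, 0.0879 (0.036 to 0.203) without the top chondrocyte-like nucleus alone and 0.236 (0.0777 to 0.79) without both, so its place past 2-fold rested on which single nuclei were counted. Between chondrocyte-like and SSPC-like nuclei, 2 of 6 members were past 2-fold, Igfbp5 and Igfbp4, where 29.5% of 9614 genes were.

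Igfbp4 (chr11:99041244-99054392, plus strand), the binding protein that PAPPA cleaves, was read from 117 UMIs and was highest in the chondrocyte-like nuclei with 79.3 CPM (62 to 100; 71 UMIs in 30 of 105 nuclei). Endothelial-like nuclei had 49.7 CPM (9 UMIs), SSPC-like nuclei 38 CPM (5 UMIs) and Mrc1-type macrophage-like nuclei 33.1 CPM (9 UMIs). The Mrc1-type nuclei had 4.73 times (1.18 to 27.2) the level of the Arg1-type nuclei, which rested on 3 UMIs. Without the Mrc1-type nucleus with the most Igfbp4 UMIs the ratio was 3.74, with an interval that included 1 (0.853 to 22.4). The ratios of chondrocyte-like to endothelial-like nuclei, 1.60 (0.795 to 3.63), and to SSPC-like nuclei, 2.09 (0.854 to 6.63), had intervals that included 1. In the marker split described for Igf1, the 10 nuclei with more osteoblast marker UMIs had 198 CPM of Igfbp4 (119 to 310; 19 UMIs). The 60 nuclei with more chondrocyte marker UMIs had 89.1 CPM (63.9 to 121), and the 106 with equal numbers 34 CPM.

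Macrophage-like nuclei, the main immune nuclei of the MTI library, and skeletal lineage-like nuclei both had Igf1 and Igf1r. Igfbp4, Igfbp5 and Igfbp7 were lower in macrophage-like nuclei. Of the 7 members with at least 10 UMIs over both, 4 were at least 2-fold lower in macrophage-like nuclei and 0 were higher. Of 11954 genes, 46.5% were past 2-fold either way, 3182 lower and 2373 higher. The count of members either way is thus near that of genes in general. The median log2 ratio was -2.23 over the members that could be compared and -0.01 over all genes. The former was the value of Igfbp3, which rested on 2 against 8 UMIs, and it does not describe Igf1, Igf1r and Igf2r. Igf1 stood at 273 CPM in macrophage-like and 212 CPM in skeletal lineage-like nuclei, a ratio of 1.29 (1.08 to 1.53). Igf1r stood at 424 and 652 CPM, 1.54 times (1.37 to 1.73) higher in skeletal lineage-like nuclei. Igf2r did not differ beyond counting error (ratio 0.991, 0.782 to 1.26). Igfbp7 was at 5.81 against 284 CPM (ratio 0.0204, 0.00814 to 0.0426), Igfbp5 at 4.98 against 44.8 CPM (0.111, 0.0388 to 0.261, with ratios of 0.286 where members were kept in the clustering and 0.263 with at least 500 genes) and Igfbp4 at 12.4 against 74 CPM (0.168, 0.0897 to 0.295). Igfbp3 was also past 2-fold, on 2 against 8 UMIs, with an interval that included 1 (0.022 to 1.07) and a ratio of 0.562 without the top skeletal lineage-like nucleus.

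The 32 other genes of the IGF pathway were read over the same comparison, of which 24 had at least 10 UMIs. Of these, 2 were past 2-fold higher in macrophage-like nuclei and 9 past 2-fold lower, each with an interval that excluded 1, so 11 of 24 were past it where 46.5% of all genes were, a count near that of genes in general. Their median log2 ratio was -0.15. The higher ones were Grb2, an adaptor of receptor tyrosine kinases (527 against 101 CPM), and Irs2, a docking protein of the receptor (44 against 16.6 CPM). Its relative Irs1 went the other way, at 2.49 against 427 CPM. The proteases that cut binding proteins were low in macrophage-like nuclei, with Pappa at 2.49 against 477 CPM and Htra1 at 4.98 against 35.1 CPM. So were the inhibitory adaptors Grb10 (9.96 against 726 CPM) and Grb14 (2.49 against 279 CPM) and the growth hormone receptor Ghr (8.30 against 633 CPM). The others were Igfbp6 (0.830 against 12.7 CPM), the mRNA-binding protein gene Igf2bp3 (5.81 against 17.5 CPM) and H19 (1.66 against 107 CPM). Insr, the insulin receptor, stayed within 2-fold at 176 against 140 CPM.

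Between endothelial-like and skeletal lineage-like nuclei 5 of 7 members were past 2-fold, 2 higher and 3 lower. Of 10299 genes 41.2% were, 1525 higher and 2720 lower. Igfbp3 was 34.7 times (16.3 to 84.9) and Igfbp7 6.51 times (5.54 to 7.64) higher in endothelial-like nuclei. Igf1 was lower, with 1 UMI against 218 (ratio 0.026, 0.000656 to 0.146), as was Igf2r at 49.7 against 131 CPM (0.381, 0.17 to 0.745). Igfbp5 had 0 UMIs in endothelial-like nuclei, with an interval of 0 to 20.4 CPM, against 46 UMIs in skeletal lineage-like nuclei. Between neutrophil-like and macrophage-like nuclei 2 of 4 members were past 2-fold. As 56.8% of 9224 genes were, this count is near that of genes in general. Igf1r was 10.3 times (8.97 to 11.9) higher in neutrophil-like nuclei and Igf1 lower, with 1 UMI against 329 (0.0492, 0.00124 to 0.276).

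**Figure D4:**
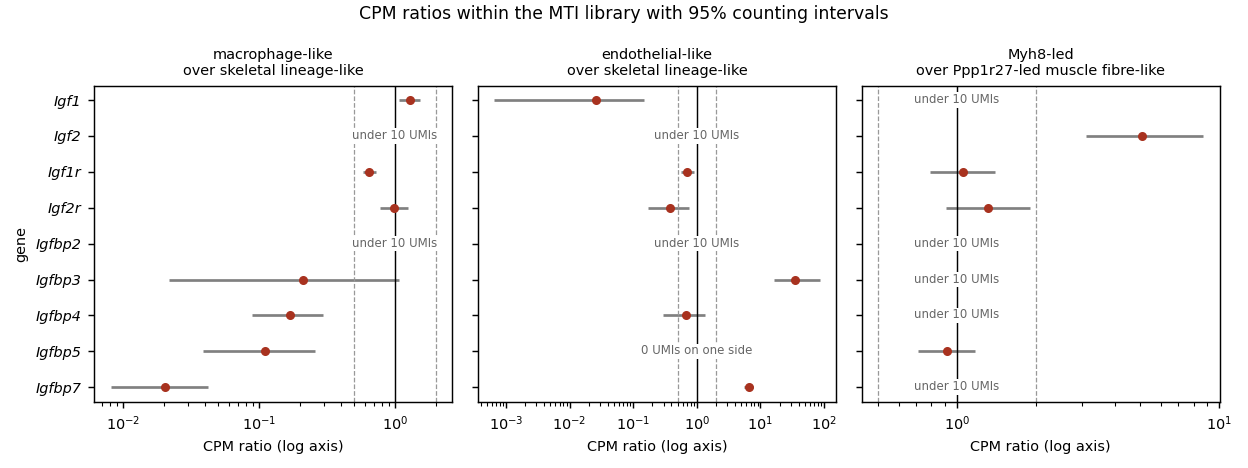
Ratios of CPM of the members with their 95% counting intervals on a log axis for 3 comparisons in the MTI library, macrophage-like over skeletal lineage-like, endothelial-like over skeletal lineage-like and Myh8-led over Ppp1r27-led muscle fibre-like nuclei, with dashed lines at 0.5 and 2. Igfbp7 lies at 0.0204 in the first panel and 6.51 in the second, and Igf2 at 5.10 in the third.

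At day 1 post-fracture the nuclei were shallow, and the 43464 barcodes with under 200 genes, which held 6848386 UMIs, served as the level of free RNA. All 9 genes were present in this free RNA, from 13 UMIs for Igf2 (1.90 CPM) to 1460 UMIs for Igf1r (213 CPM), with Igf1 at 35 CPM, Igf2r at 54.3 CPM, Igfbp7 at 41.9 CPM and Igfbp5 at 28.9 CPM. Skeletal lineage-like nuclei (80 nuclei, 40354 UMIs), immune-like nuclei (528 nuclei, 184759 UMIs) and myogenic nuclei (723 nuclei, 401482 UMIs) were set against it. The other 1074 nuclei were of other kinds or unnamed. Summed skeletal markers stood at 2949 CPM in the skeletal lineage-like nuclei against 823 CPM in free RNA, but macrophage markers at 487 CPM in the immune-like nuclei against 416 CPM in free RNA. Muscle fibre markers were present at 20543 CPM in the skeletal lineage-like and 25168 CPM in the immune-like nuclei, against 44006 CPM in free RNA, and their part in the levels below was not tested.

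In the skeletal lineage-like nuclei, 9 of 9 members were past 2-fold from free RNA, but 77.3% of 21393 genes were. The count either way is thus near that of genes in general. By direction, 7 members were higher and 2 lower, against 3783 genes higher and 12758 lower. At this depth 1 UMI already stood at 24.8 CPM. A gene low in free RNA thus falls past 2-fold, higher with 1 UMI and lower with 0. The directions therefore cannot tell the members from genes in general. All of these member calls but that of Igf1r rested on at most 6 UMIs in the nuclei. The interval excluded 1 for Igf1r and Igfbp7. Igf1r was at 471 CPM (283 to 735; 19 UMIs), 2.21 times free RNA (1.33 to 3.46), and Igfbp7 at 149 CPM (54.6 to 324; 6 UMIs), 3.55 times (1.29 to 7.82). The Igfbp7 interval included 1 where members were kept in the clustering (1.74, 0.634 to 3.84), with resolutions doubled (1.14, 0.455 to 2.38) and with nuclei named by their own marker score (1.48, 0.703 to 2.77), and the Igf1r interval with the last of these (1.28, 0.927 to 1.73). Igf1 had 4 UMIs and Igf2r 6 UMIs with intervals that included 1, Igf2, Igfbp3 and Igfbp4 had 1 UMI each, and Igfbp2 and Igfbp5 had 0. Where a gene had to hold 10 UMIs in the nuclei, or be awaited at 10 from its free RNA level, 1 member could be compared (Igf1r, past 2-fold), against 45.4% of 625 genes. The Igf1r ratio was within 2-fold with members kept (1.60, 187 nuclei), resolutions doubled (1.76, 344 nuclei), own marker scores (329 nuclei) and at least 300 genes (1.92, 69 nuclei). It was 2.57 against free RNA under 100 genes and 2.54 as a mean over nuclei.

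The filter of the study kept nuclei with under 0.5% mitochondrial UMIs, and a limit of 5%, as used for the MTI library, gave 413 skeletal lineage-like nuclei. In these, 6 of 9 members were past 2-fold, where 47.7% of 21494 genes were, and the interval excluded 1 for Igf1, Igfbp4, Igfbp5 and Igfbp7. Igfbp7 was at 222 CPM, 5.30 times free RNA (3.76 to 7.29), and Igfbp5 at 121 CPM, 4.19 times (2.62 to 6.41). The Igfbp5 level was seen at this limit alone, on 24 UMIs. Its ratio was 0.842 with members kept in the clustering (2 UMIs) and 0.710 with resolutions doubled (3 UMIs). With nuclei named by their own marker score it was 0.215 (1 UMI). Each of these ratios had an interval that included 1. Igfbp4 was 3.57 times (1.26 to 8.26) and Igf1 2.16 times (1.19 to 3.63) free RNA, the latter on 15 UMIs. Igf1r was 1.51 times (1.16 to 1.95) and thus within 2-fold. With the stricter minimum, 3 of 5 members were past 2-fold against 23.7% of 4305 genes.

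In the immune-like nuclei of day 1 no Igf1 UMI was found (interval 0 to 20 CPM), below the free RNA level (interval of the ratio 0 to 0.574). The interval of this ratio included 1 with the mitochondrial limit of 5% (0 to 1.48), with resolutions doubled (0 to 1.71) and with nuclei named by their own marker score (2 UMIs, 0.0342 to 1.04). Igf1r at 244 CPM (ratio 1.14, 0.83 to 1.54) and Igf2r at 70.4 CPM (1.30, 0.683 to 2.24) could not be told from free RNA at this depth, and nor could Igfbp5 and Igfbp7. In all, 4 of 9 members were past 2-fold, all lower (Igf1, Igf2, Igfbp2 and Igfbp3, each at 0 UMIs). Of 21539 genes 43.4% were, 4026 higher and 5329 lower. With the stricter minimum 0 of 2 members were past 2-fold, against 9.84% of 3842 genes.

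In the myogenic nuclei of day 1, 2 of 9 members were past 2-fold, both lower and with intervals that included 1 (Igfbp3 and Igfbp4, at 1 UMI each). Of 21536 genes 42.4% were, 1344 higher and 7779 lower. With the stricter minimum 0 of 5 members were past 2-fold, against 25.9% of 6764 genes. Igf1r was at 289 CPM, 1.36 times free RNA (1.11 to 1.64), Igf2r at 84.7 CPM, 1.56 times (1.06 to 2.22), and Igfbp5 at 49.8 CPM, 1.72 times (1.03 to 2.73). With nuclei named by their own marker score, the intervals of Igf1r (1.24, 0.986 to 1.54) and Igf2r (1.53, 0.993 to 2.26) included 1. Igf1 was at the free RNA level (34.9 CPM, ratio 0.995, 0.536 to 1.7) and Igf2 had 1 UMI. Without the 15 myogenic nuclei whose barcode occurred in both libraries, Igf1 was at 28 CPM, Igfbp5 at 50.9 CPM and Igfbp7 at 17.8 CPM (ratio 0.425, 0.169 to 0.887), whose interval then excluded 1. The Igfbp7 interval also excluded 1 with members kept in the clustering (0.251 to 0.988) and with own marker scores (0.160 to 0.970). With the mitochondrial limit of 5%, 1 of 9 members was past 2-fold, where 30.2% of 21651 genes were, and 0 of 5 with the stricter minimum, against 16.0% of 9082 genes.

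**Figure D5:**
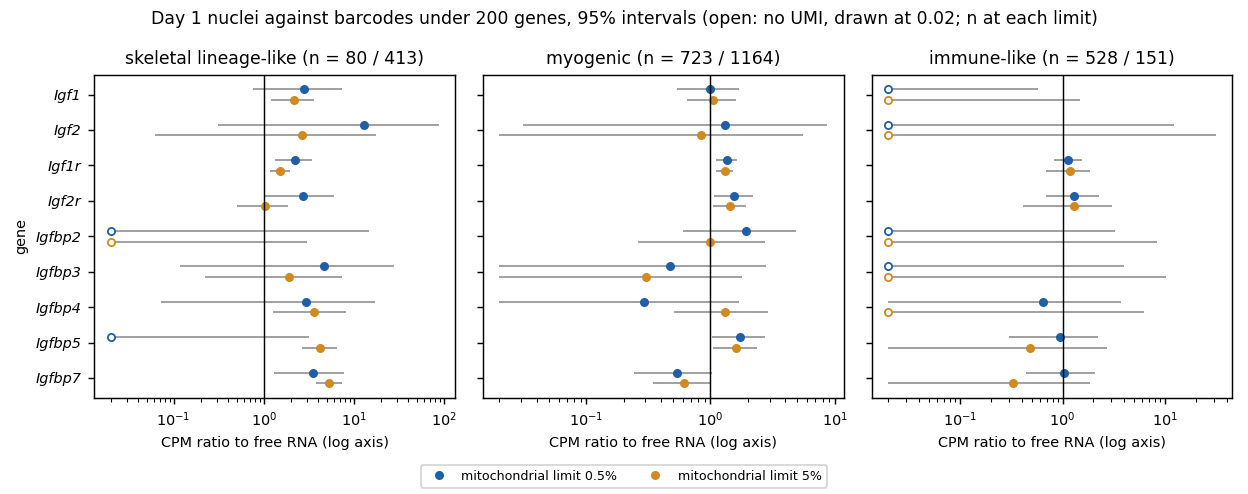
Ratio of the level of each member in nuclei to that in free RNA at day 1 post-fracture on a log axis, with 95% counting intervals, for skeletal lineage-like, myogenic and immune-like nuclei and for mitochondrial limits of 0.5% and 5%. Open symbols, drawn at 0.02, stand for 0 UMIs in the nuclei, and Igfbp7 in skeletal lineage-like nuclei lies at 3.55 with the first limit and 5.30 with the second.

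The genes most like each member over the 17 MTI populations were taken by Pearson's r of log2(CPM + 10), as a description over populations of 1 library that differ in depth. For Igf1 these were Rab3il1, Tesk2 and Hgf (r of 0.87, 0.86 and 0.86), and for Igf2 Myh3, Zdbf2 and Trim55 (0.98, 0.97 and 0.97). For Igf1r they were Csf1, Mier3 and Hdc (0.84, 0.78 and 0.77), and for Igf2r Kcmf1, Tatdn1 and Uso1 (0.84, 0.77 and 0.75). Hgf encodes another growth factor, Csf1 the macrophage growth factor and Hdc the enzyme that makes histamine. For Igfbp7 they were Nr2f2, Lamb1 and Nrep (0.97, 0.97 and 0.96), for Igfbp5 Cobl, Tpm2 and Ank3 (0.94, 0.94 and 0.94), and for Igfbp4 Nhsl2, Kdelr2 and Tmtc2 (0.86, 0.83 and 0.81). Igfbp2 and Igfbp3 had fewer than the 100 UMIs asked for.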

How the data were processed

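For both libraries the authors deposited unnormalized UMI counts of each gene in each barcode, which per the study's methods were made with Cell Ranger on mouse mm10 with intronic and exonic reads counted; the file header gives Cell Ranger 7.0.1. The labels also name a human reference, but all 32285 gene identifiers are mouse. Members and gene lists were chosen with earlier results of these data known.

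Nuclei were kept with 200 to 5000 genes and under 0.5% mitochondrial and 2.5% ribosomal UMIs at day 1, or 5% and 2% after MTI, and clustered per library in Seurat 5.3.0 (R 4.3.3) on 2000 variable genes without the members and the pathway list, with the components and resolutions of the methods. Myogenic nuclei were kept. Clusters were named by a rule set after the data had been seen: 3 or more class markers, each holding 3 or more UMIs and 1.5-fold over the remaining nuclei, a fold of 1.5 or more for the markers summed, and no other class with more markers among the 10 leading genes. Scrublet (scanpy 1.11.5) marked 13 day 1 nuclei (0.541%) and 3 MTI nuclei (0.266%), which were kept, so doublets were in effect not removed.

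CPM, the UMIs of a gene per 1000000 UMIs of a population, were computed from the deposited counts with exact Poisson intervals, ratios with exact conditional binomial intervals and shares with exact Clopper-Pearson intervals, at the 95% level. Shares were also taken after thinning each nucleus to 500 UMIs. A gene entered a comparison with at least 10 UMIs over both sides and counted as past the limit at 2-fold, and pathway genes were named when past it between macrophage-like and skeletal lineage-like nuclei with an interval that excluded 1. In simulated counts of that comparison (11937 genes), 100% of genes changed 4-fold and 98% of those changed 2.5-fold were past 2-fold, as were 5.52% of unchanged genes. The changed genes were drawn among those with at least 100 expected UMIs over both sides. Counts were Poisson on the sums, without UMIs gathered in single nuclei. These rates do not cover members with fewer UMIs or with many UMIs in 1 nucleus. Gene positions are from GENCODE vM21 and promoter sequences from RefSeq. The alternatives tried are listed under the dependence on processing.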

Additional observations from a re-analysis of the deposited data

How the results depend on the processing

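Of 215 values computed under alternatives, 170 stayed within their interval or within 1.5 times the main count and 45 moved. No ratio of macrophage-like to skeletal lineage-like nuclei whose interval excluded 1 changed direction, and the Igf2r ratio, whose interval included 1, lay between 0.918 and 1.06. After MTI, the Igf1 ratio of macrophage-like to skeletal lineage-like nuclei ranged from 1.17 to 1.40 and the count of members past 2-fold was 3 or 4 at this limit and 5 at a fold limit of 1.5. The Igf1r ratio of skeletal lineage-like to macrophage-like nuclei was 1.745 without the 5% of nuclei with the most UMIs. The next counts are of members past 2-fold from free RNA at day 1, in skeletal lineage-like, myogenic and immune-like nuclei. For skeletal lineage-like nuclei the main count of 9 became 5 with members and pathway genes kept in the clustering, 3 with resolutions doubled, 4 with nuclei named by their own marker score and 1 with 10 UMIs held or awaited. For myogenic nuclei the main count of 2 became 1 at a mitochondrial limit of 5%, 1 with members kept in the clustering, 4 with free RNA under 100 genes, 1 with at least 300 genes, 6 at a fold limit of 1.5 and 0 with 10 UMIs held or awaited. For immune-like nuclei the main count of 4 became 7 at a mitochondrial limit of 5%, 2 with free RNA under 100 genes and 0 with 10 UMIs held or awaited. The 10 UMI minimum tests fewer genes by construction, and for the other changes the cause was not tested. That minimum and leaving out barcodes present in both libraries, or the nucleus with the most UMIs of a gene, were chosen after seeing the data. With a mitochondrial limit of 0.5% after MTI no skeletal lineage-like cluster was named, so there was no ratio of macrophage-like to skeletal lineage-like nuclei, and with at least 300 genes at day 1 no immune-like cluster, so there was no count for it. No paired analysis was possible because each condition had 1 library. No replicate could be left out for the same reason, and depth limited the day 1 values, many of which rested on fewer than 10 UMIs.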
